A study of Mus musculus with 20 samples.

Results

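Genes of the cell cycle and of DNA replication were followed in the epididymal fat pads of 20 male C57BL/6 mice, with 1 expression array per fat pad. The genes were a list of 38 symbols with roles from S phase entry to chromosome segregation, and a gene counted as measured where a probe set carried its symbol. That held for 35 genes, each with 1 probe set, among 19505 genes with a symbol on the array. Foxm1, Mcm7 and Ccnb1 had no probe set named for them here and have no values.

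All 20 mice carried a Tnf gene floxed on both alleles (TNF-αFlox/FLox), which encodes the inflammatory cytokine TNF-α. The 10 mice called cre had 1 copy of LyzMcre (LyzMcre+/-), in which the lysozyme M locus drives Cre recombinase in macrophages and in other myeloid cells such as neutrophils. Their 10 littermates called wt had no Cre (LyzMcre-/-). All ate chow to 10 weeks of age and then, for 18 weeks, a purified high-fat diet (40% of calories as fat), so that they were 28 weeks old when the tissue was taken. The sample titles name 2 batches, each with 5 wt and 5 cre mice, and number the mice, so that "cre mouse 9" is the cre mouse with replicate number 9.

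Values are log2 signals, so a difference of 1 is a doubling. The targeted gene, Tnf, averaged 6.66 ± 0.69 (SD, n = 10) in wt and 4.67 ± 0.43 in cre mice, and its highest cre mouse (5.34) lay below its lowest wt mouse (5.78). It was the 1 probe set of 22206 past an adjusted p of 0.05 (limma, log2 difference −1.99, SE 0.24, adjusted p = 0.00082). Medians of the arrays lay between 6.49 and 6.58, and arrays correlated at 0.934 to 0.989. The mean of 11 adipocyte genes lay between 14.3 and 17.0 in the 20 mice, above every array median. That of 11 germ cell genes, since the testis lies next to the fat pad, was 5.04 to 5.55, below every array median, although 1 of them, Sycp3, averaged 11.6. A cell type list set 3 mice apart: wt mouse 4 had the highest mean of liver genes (14.2), wt mouse 6 the lowest mean of adipocyte genes (14.3) and cre mouse 9 the highest mean of erythroid precursor genes (8.29). Not counted among the 3 was wt mouse 5, whose mean of adipocyte genes (15.0) was the next lowest, followed by cre mouse 3 (15.9).

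A dividing cell switches on its replication genes before S phase and its mitosis genes before it divides. E2F transcription factors act at promoters of the first wave, which includes the cyclins E, the loading factors Cdc6 and Cdt1 and the MCM helicase that opens the replication origins. The second wave, with Cdk1, the B cyclins and the spindle proteins, depends on a short promoter element called the cell cycle genes homology region, or CHR. Most adipocytes of adult fat do not divide, while macrophages, vascular cells and precursors can, and macrophages are known to multiply within fat during weight gain on a rich diet.

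The promoters were searched for these elements, and a few are printed because the CHR letters stood mostly in promoters of mitotic genes and the E2F letters mostly in those of S phase genes. RefSeq promoters (GRCm38.p6, 250 bases before to 50 after the start) were in the table for 29 of the 35 genes. The CHR letters TTTGAA were searched on both strands and stood in 12 of 16 promoters of genes with mitotic roles (75.0%) and in 1 of 13 with S phase roles (7.69%), beside 18.1% of all 27025 promoters. Each of the 12 also held a CCAAT box. That pair occurred in 7.12% of all promoters, and the CCAAT box alone in 37.9%. E2F letters, counted as any of TTTCCCGC, TTTGGCGC, TTTCGCGC and TTTGCCGC on either strand, stood in 5 of the 13 S phase promoters (Cdc6, Cdt1, Mcm3, Mcm5 and Mcm6) and in 1 of the 16 mitotic ones (Cdk1), beside 2.32% of all promoters. None of the 3 motifs was found in 6 of the 29 promoters, those of E2f1, Ccne1, Tyms, Tk1, Nusap1 and Birc5. A match is a stretch of letters and no measured binding site.

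The following 30-base stretches run 5′ to 3′ along the gene's strand and lie in GRCm38.p6 at chr7:122159453-122159482 (Plk1, plus strand), chr9:70421533-70421562 (Ccnb2, minus), chr10:69352910-69352939 (Cdk1, minus), chr7:135716460-135716489 (Mki67, minus), chr1:189688067-189688096 (Cenpf, minus) and chr2:172370521-172370550 (Aurka, minus). Capitals mark the CHR letters. Plk1, Ccnb2, Cdk1 and Mki67 are shown because they had the steepest slopes on the macrophage gene Adgre1 among the mitotic genes, and Cenpf and Aurka because their slopes were small.
Plk1: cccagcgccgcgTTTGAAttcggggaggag
Ccnb2: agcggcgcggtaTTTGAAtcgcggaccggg
Cdk1: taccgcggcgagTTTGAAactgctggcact
Mki67: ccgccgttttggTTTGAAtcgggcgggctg
Cenpf: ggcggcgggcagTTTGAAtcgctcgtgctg
Aurka: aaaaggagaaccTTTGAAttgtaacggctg

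The E2F letters of the licensing genes are in capitals in the next stretches, at chr1:128359734-128359763 (Mcm6, minus strand), chr8:75109345-75109374 (Mcm5, plus), chr1:20820263-20820292 (Mcm3, minus), chr8:122568035-122568064 (Cdt1, plus) and chr11:98908002-98908031 (Cdc6, plus). In Cdc6 the letters read on the opposite strand. In Mcm5 the capitals overlap a second match, to TTTGGCGC on the opposite strand.
Mcm6: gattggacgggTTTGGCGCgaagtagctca
Mcm5: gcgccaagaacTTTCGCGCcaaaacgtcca
Mcm3: cgggaaaacttgggaagtTTTGGCGCcaag
Cdt1: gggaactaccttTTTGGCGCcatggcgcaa
Cdc6: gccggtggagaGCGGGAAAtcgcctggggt

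Most of the 35 genes moved together from mouse to mouse. Their mean per mouse ran from 6.95 (wt mouse 1) to 8.39 (wt mouse 5) in wt and from 6.98 (cre mouse 9) to 7.995 (cre mouse 1) in cre mice. In wt mouse 5, 33 of the 35 genes lay above their own mean over the 20 mice, and 16 had their highest value there. In cre mouse 10, 33 genes lay below their mean, and in wt mouse 1 it was 32. The lowest values fell mostly on cre mouse 9 (9 genes), wt mouse 1 (7 genes) and cre mouse 10 (6 genes). High and low mice thus stood in both groups.

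**Figure D1:**
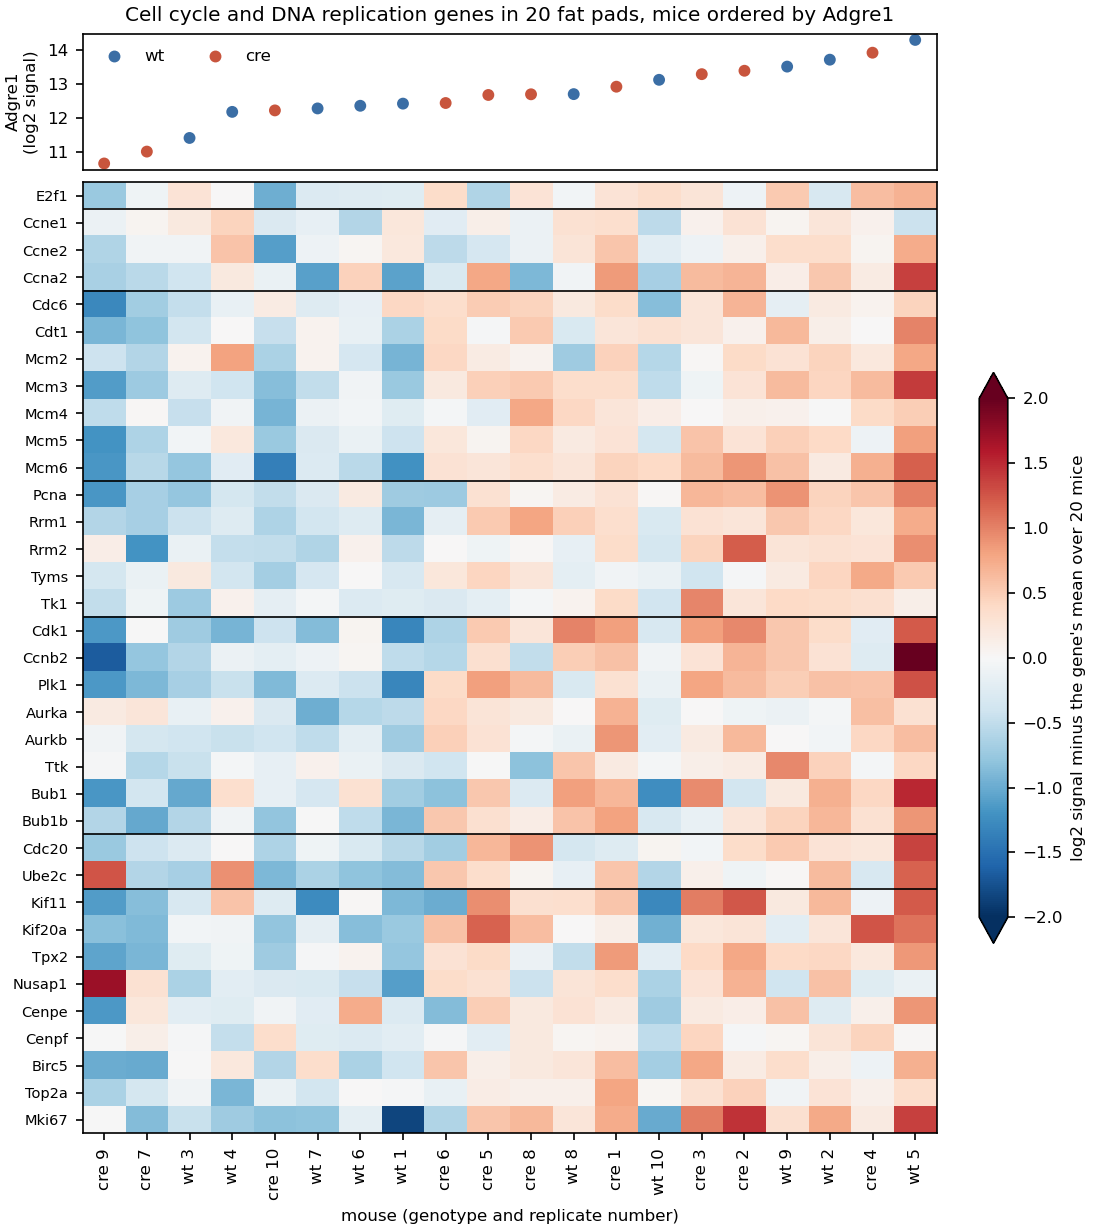
Heat map of the 35 genes (rows, by role, horizontal lines between roles) in the 20 mice (columns, ordered by Adgre1), as log2 signal minus the gene's mean over the 20 mice, with the Adgre1 log2 signal of each mouse above (blue wt, red cre). Blue cells gather at the low Adgre1 end and red cells at the high end, where wt mouse 5 has the highest Adgre1 value (14.3), and Nusap1 in cre mouse 9 (10.2) stands out at the low end.

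Deviations from the mean of the same genotype and batch were correlated over the 20 mice as a description of this pattern. Over the 595 pairs of the 35 genes the median r was 0.57, and 581 pairs (97.6%) were positive. A pair of one of these genes with any other probe set had a median r of −0.04, and 45.4% of such pairs were positive. Pairs of S phase genes (median 0.58), of mitotic genes (0.54) and of one with the other (0.56) were about alike. The closest pair was Mcm3, a helicase subunit, with Rrm1, the large subunit of ribonucleotide reductase (r = 0.93), and the next were Mcm6 with the mitotic kinase Plk1 (0.92) and the loading factor Cdt1 with Plk1 (0.90). All probe sets share the arrays and the mix of cells in each fat pad, which these correlations do not separate.

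A few genes stood outside the pattern. The spindle protein gene Nusap1 and the cyclin gene Ccne1 each had a median r of 0.11 with the other 34 genes, and the kinetochore gene Cenpf had 0.19. The next lowest were Aurka, which encodes the kinase of the spindle poles (0.39, positive with all 34), Ube2c (0.42) and E2f1 (0.43). The spread within genotype and batch was widest for Mki67, the gene of the proliferation antigen Ki-67 (SD 0.92), for the spindle motor gene Kif11 (0.91) and for Cdk1 (0.83), and narrowest for Cenpf (0.24). A mean below every array median was found for 10 of the 35 genes, E2f1, Ccna2, Cdc6, Tk1, Cdk1, Ttk, Bub1, Cdc20, Kif20a and Cenpf. How background signal bears on the differences of these weak probe sets was not tested.

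The study compared cre with wt to find the genes that depend on TNF-α from macrophages, and for the cell cycle genes the genotypes were not told apart. None of the 35 genes passed adjustment over all probe sets (limma, adjusted p from 0.770 to 0.998), where 0.0045% of all probe sets did. The mean of the 35 genes was 7.53 ± 0.43 (SD, n = 10) in wt and 7.59 ± 0.40 in cre mice, with medians of 7.43 and 7.76. The difference was 0.06 with a 95% interval from −0.35 to 0.46. It was 0.03 in batch 1 (7.53 in wt, 7.56 in cre) and 0.08 in batch 2 (7.53 and 7.61). The genotypes overlapped in each of the 35 genes, but the share of all probe sets with such overlap was not computed. In whole tissue a change in the number of dividing cells and a change of RNA per cell cannot be told apart.

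By single genes, 14 of the 35 were lower and 21 higher in cre mice, with a median difference of 0.05, against 0.00 over all probe sets, of which 49.3% were lower. At an unadjusted p under 0.05 stood 5 genes, Ccne2 lower and Aurka, Aurkb, Nusap1 and Cenpf higher, while 6.29% of all probe sets were under that level, 3.05% lower and 3.24% higher. The study's own selection, which pairs an unadjusted p below 0.05 with a change of 1.5 times or more, took 1 of the 35, Nusap1, and 1.04% of all probe sets. Direction was the same in both batches for 17 of the 35 genes, 7 of them lower and 10 higher. In batch 1 alone 19 of the 35 were lower (50.2% of all probe sets), 2 stood at an unadjusted p under 0.05 (Aurka and Nusap1, beside 7.22%) and the study's selection took Nusap1 (4.26%). In batch 2 alone 13 were lower (47.1%), 1 was under that level (4.51%) and the selection took 0 (2.56%) in limma. Between the batches, at equal genotype, none of the 35 passed at either level in limma, beside 0% of probe sets adjusted and 0.572% unadjusted. Whether the values were adjusted for batch before deposit is not stated, and such a step would bear on this result. Without the 3 mice set apart by a cell type list, which leaves 8 wt and 9 cre mice, only Aurka was still under an unadjusted 0.05 (difference 0.43, adjusted p = 0.841), beside 5.61% of all probe sets. Leaving out single mice gave 3 to 5 genes, and 3 without wt mouse 4, wt mouse 7, cre mouse 4 or cre mouse 10 (7.43%, 6.02%, 6.35% and 5.70% of all probe sets).

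**Figure D2:**
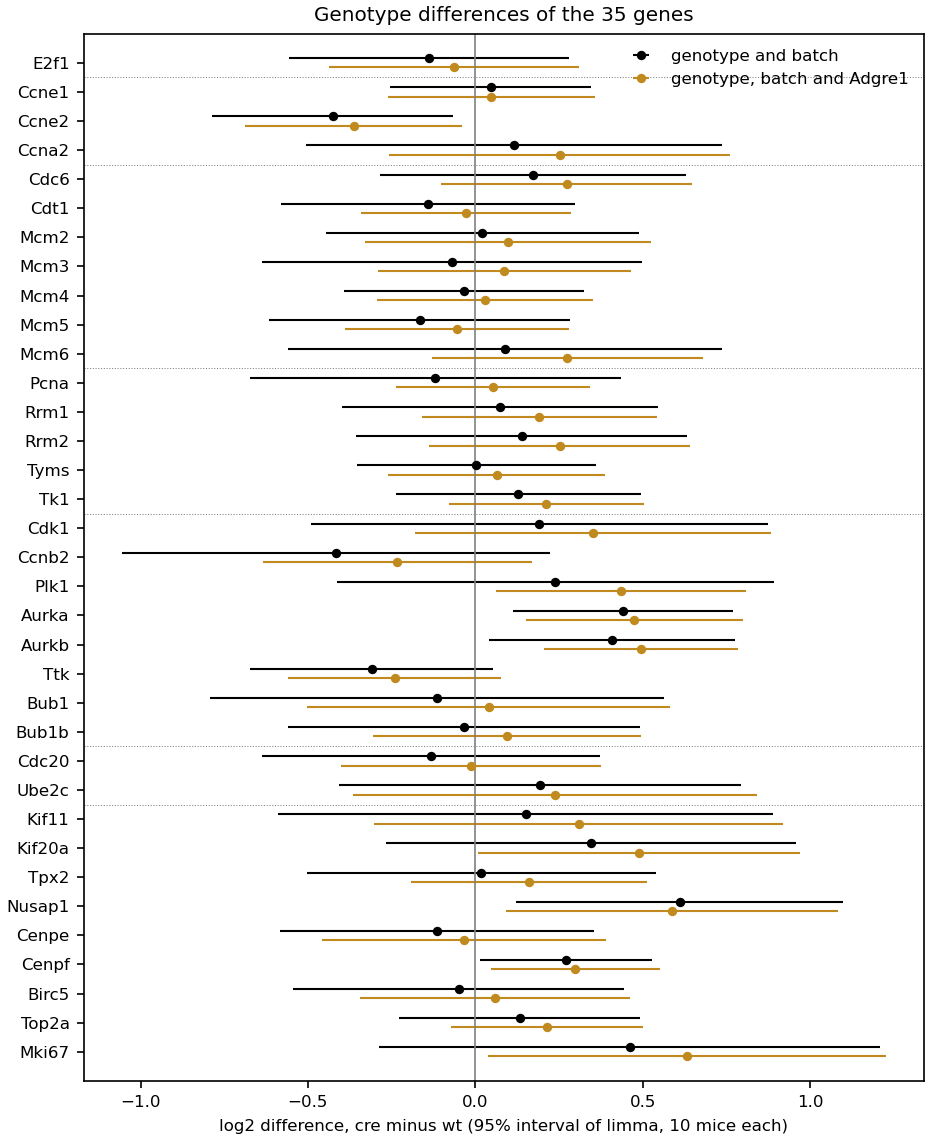
Log2 difference, cre minus wt, for each of the 35 genes with the 95% interval of limma (10 mice a genotype), black with genotype and batch in the model and ochre with the Adgre1 signal added; dotted lines separate the roles. Most black intervals cross 0, and the exceptions are Ccne2 on the left (−0.43) and Aurka, Aurkb, Nusap1 and Cenpf on the right (0.27 to 0.61), none of them past adjustment.

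At the head of the cycle, E2f1, the activator of the replication genes, ran from 6.15 to 7.17 in wt (median 6.45) and from 5.50 to 7.09 in cre mice (median 6.56). The groups overlapped over most of their range, and the mean difference was −0.14 (SE 0.20, adjusted p = 0.917). Ccne2 encodes cyclin E2, which activates Cdk2 at the start of S phase (chr4:11190433-11204779). It lay between 7.32 and 8.28 in wt mice (median 7.77) and between 6.44 and 8.08 in cre mice (median 7.43). In cre mice 9 of 10 values were below the wt mean, and the difference was −0.43 (SE 0.17, adjusted p = 0.770), with −0.34 in batch 1 and −0.52 in batch 2. Its paralog Ccne1 differed by 0.05 (SE 0.15), and cyclin A2, Ccna2, by 0.12 (SE 0.30).

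Among the 7 measured licensing genes 4 were lower and 3 higher in cre mice, with differences from −0.17 to 0.17. Cdc6, which brings the helicase to the origin, ran from 4.73 to 6.04 in wt (median 5.43) and from 4.31 to 6.27 in cre mice (median 5.89). Its difference of 0.17 (SE 0.22, adjusted p = 0.902) was −0.16 in batch 1 and 0.50 in batch 2, and in batch 2 alone it was the 1 gene of the 35 under an unadjusted p of 0.05. Mcm5, a subunit of the helicase, lay at 6.72 to 7.96 in wt (median 7.20) and 5.94 to 7.71 in cre mice (median 7.28), with cre mouse 9 lowest. Its difference was −0.17 (SE 0.22, adjusted p = 0.906).

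The genes of DNA synthesis and nucleotide supply differed by −0.12 to 0.14. Pcna, the sliding clamp of the DNA polymerases, spanned 14.1 to 15.8 in wt (median 14.9) and 13.7 to 15.5 in cre mice (median 15.0), and its difference was −0.12 (SE 0.27, adjusted p = 0.952). Its sign turned at equal Adgre1 (0.05) and without cre mouse 9 (0.0046). Tk1, the thymidine kinase of S phase, had 5.22 to 6.34 in wt (median 5.97) and 5.45 to 6.93 in cre mice (median 5.89), with cre mouse 3 highest and a difference of 0.13 (SE 0.18, adjusted p = 0.912). Rrm1, Rrm2 and Tyms, the last of them thymidylate synthase, differed by 0.07, 0.14 and 0.00.

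Of the 8 measured mitotic kinases, cyclins and checkpoint genes, 4 were lower and 4 higher in cre mice. Aurka (chr2:172356190-172370886) ran from 5.57 to 6.85 in wt mice (median 6.41) and from 6.25 to 7.23 in cre mice (median 6.76). In cre mice 9 of 10 values lay above the wt mean, and the difference was 0.44 (SE 0.16, unadjusted p = 0.011, adjusted p = 0.770), with 0.56 in batch 1 and 0.32 in batch 2. Aurkb encodes the kinase of the chromosomal passenger complex (chr11:69045624-69051664). It spanned 6.92 to 8.24 in wt (median 7.44) and 7.24 to 8.51 in cre mice (median 7.87), with 8 of 10 cre values above the wt mean. Its difference was 0.41 (SE 0.18, adjusted p = 0.781) and was alike in batch 1 (0.39) and batch 2 (0.43). Survivin, Birc5, a partner of Aurkb in that complex, differed by −0.05 (SE 0.24). On the lower side, Ccnb2, a B cyclin that activates Cdk1, differed by −0.42 (SE 0.31) and the checkpoint kinase Ttk by −0.31 (SE 0.17), while Cdk1 itself differed by 0.19 (SE 0.33) and Plk1 by 0.24 (SE 0.31).

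Ube2c, the ubiquitin-conjugating enzyme of the anaphase-promoting complex, ran from 7.36 to 9.40 in wt (median 7.84) and from 7.32 to 9.47 in cre mice (median 8.29), with cre mouse 9 highest and wt mouse 5 highest among the wt mice. The difference of 0.19 (SE 0.29, adjusted p = 0.920) was 0.52 in batch 1 and −0.14 in batch 2. Cdc20, the activator of that complex, had the weakest signal of its role, 4.73 ± 0.55 in wt and 4.59 ± 0.58 in cre mice, and was removed by a filter on the weakest probe sets.

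The 9 genes of the spindle, kinetochore and chromosome included 7 that were higher in cre mice. Nusap1, whose protein bundles spindle microtubules (chr2:119618298-119650165), lay at 7.35 to 9.05 in wt (median 8.10) and 8.02 to 10.2 in cre mice (median 8.76). The difference was 0.61 (SE 0.24, adjusted p = 0.770), with 1.11 in batch 1 and 0.11 in batch 2. The difference between batches did not pass adjustment (limma interaction, adjusted p = 0.663), where 0% of all probe sets did. It was the 1 interaction of the 35 under an unadjusted p of 0.05, beside 7.41% of all probe sets. The highest value belonged to cre mouse 9, the mouse with high erythroid precursor genes, and without it the difference was 0.45 (adjusted p = 0.883). A part of erythroid cells in that value was not tested.

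Cenpf, a kinetochore protein gene (chr1:189640606-189688107), ran from 4.99 to 5.76 in wt (median 5.39) and from 5.29 to 5.95 in cre mice (median 5.59), with 9 of 10 cre values above the wt mean and a difference of 0.27 (SE 0.12, adjusted p = 0.785). Top2a, the topoisomerase that untangles sister chromosomes, spanned 7.39 to 8.65 in wt (median 8.30) and 7.68 to 9.10 in cre mice (median 8.40), with a difference of 0.13 (SE 0.17, adjusted p = 0.908). Mki67 (chr7:135689784-135716450) had the widest spread within genotype and batch, with 8.53 to 11.7 in wt (median 10.0) and 9.49 to 11.8 in cre mice (median 10.7). Its difference of 0.46 had an SE of 0.36 (adjusted p = 0.848) and a 95% interval from −0.29 to 1.21, which holds a doubling as well as no change.

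**Figure D3:**
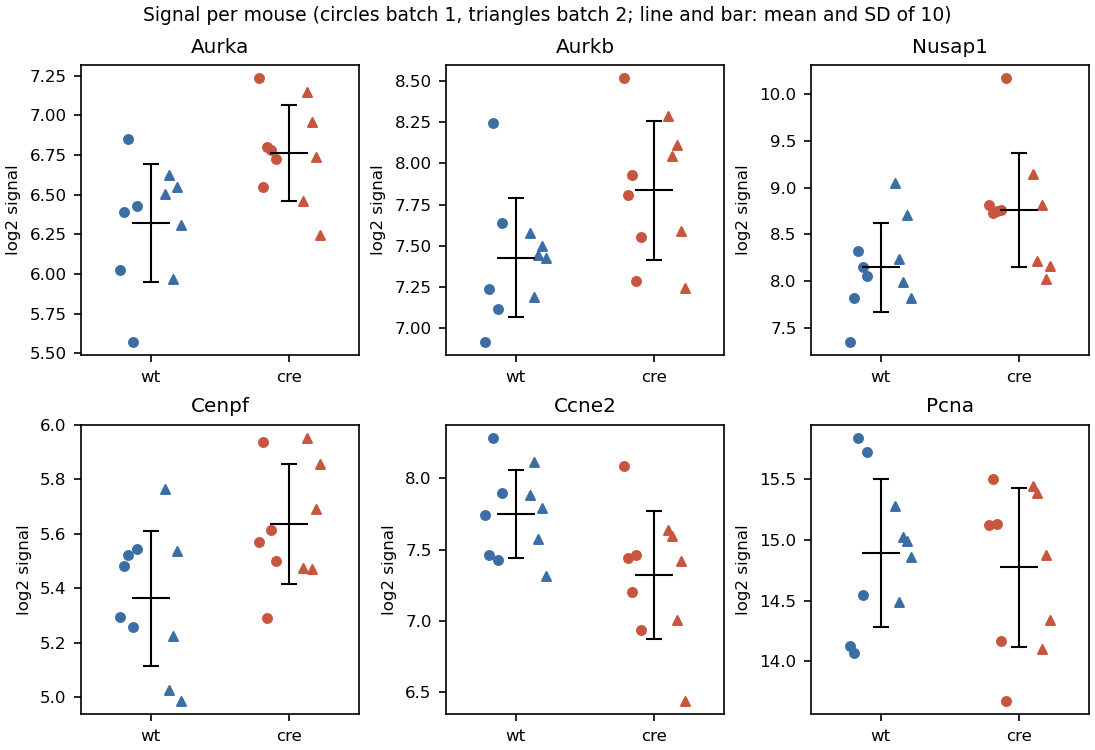
Log2 signal of Aurka, Aurkb, Nusap1, Cenpf, Ccne2 and Pcna in each mouse (circles batch 1, triangles batch 2; blue wt, red cre), with mean and SD of 10 mice. The genotypes overlap in all 6 panels; in Nusap1 cre mouse 9 stands at 10.2, above all other mice, and Ccne2 has its lowest value in a cre mouse of batch 2 (6.44).

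Adgre1, which encodes the macrophage surface protein F4/80, spread over 10.7 to 14.3 and was not told apart between genotypes. It averaged 12.8 ± 0.86 (SD, n = 10) in wt and 12.5 ± 1.02 in cre mice (limma difference −0.28, SE 0.38, adjusted p = 0.912). Of the 16 macrophage genes, Adgre1 among them, 15 were lower in cre mice. Their list means ran from 12.4 to 14.0 in wt and from 10.9 to 13.4 in cre mice. The difference was −0.41, with a 95% interval from −1.13 to 0.32. It was −0.72 in batch 1 (15 genes lower) and −0.09 in batch 2 (9 lower). The lowest list means were those of cre mouse 9 (10.9) and cre mouse 7 (11.4), both of batch 1. Other lists leaned one way as well, with 9 of 10 T cell genes (−0.30) and 8 of 8 mesothelial genes lower (−0.43), and 11 of 11 adipocyte (0.32), 11 of 11 liver (1.32) and 9 of 9 B cell genes higher in cre mice (0.20), while erythroid precursor genes were split, 4 lower and 5 higher (−0.03). Of 103 measured cell type markers 4 (3.88%) stood at an unadjusted p under 0.05 between genotypes, a smaller share than the 6.29% of all probe sets. They were the macrophage gene Tyrobp (−0.80), the mesothelial gene Msln (−0.47) and the erythroid gene Gata1 (−0.38) lower and the liver gene Alb (2.55) higher in cre mice, with adjusted p from 0.770 to 0.789 in limma. Their part in the values of the 35 genes was not tested. At equal Adgre1 none of the 35 genes passed adjustment (smallest adjusted p = 0.687), where 0.00901% of all probe sets did. At an unadjusted p under 0.05 stood 8 of the 35, beside 6.62% of all probe sets (3.37% lower, 3.25% higher). Ccne2 was lower (−0.36, SE 0.16). Higher were Plk1 (0.44, SE 0.18), Aurka (0.48, SE 0.16), Aurkb (0.49, SE 0.14), the cytokinesis motor gene Kif20a (0.49, SE 0.23), Nusap1 (0.59, SE 0.24), Cenpf (0.30, SE 0.12) and Mki67 (0.63, SE 0.29).

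At equal Adgre1, 8 of the 35 genes were lower and 27 higher in cre mice, with a median difference of 0.16 against 0.00 over all probe sets, of which 49.7% were lower. The mean of the 35 genes differed by 0.16 (95% interval −0.07 to 0.39), with 0.32 in batch 1 and 0.05 in batch 2. The count of 8 was 1 in batch 2 alone (4.70% of all probe sets) and 4 without wt mouse 1 (6.71%) or without cre mouse 5 (6.75%). With the mean of the 16 macrophage genes in place of Adgre1 it was 11 (6.35%), and 11 again with Adgre1 left out of that mean (6.32%). The mean of the 35 genes then differed by 0.25 and 0.26.

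Across mice, the cell cycle genes rose with Adgre1. The slope, at equal genotype and batch, is the log2 change of a gene per log2 unit of Adgre1. It was positive in 34 of the 35 genes and passed adjustment in 23 of them, all positive, where 6.26% of 22205 probe sets passed with a positive and 2.57% with a negative slope. At an unadjusted p under 0.05 stood 30 positive slopes, beside 11.9% of all. The median slope of the 35 genes was 0.40, against −0.02 over all probe sets. The list was chosen with earlier results of these arrays known, and the slope is a relation across mice that does not say which cells held the RNA.

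The steepest slopes belonged to genes of both waves. Plk1, which drives entry into and passage through mitosis, had 0.71 (SE 0.10, limma adjusted p = 7.6e-05). Its values ran from 6.60 to 9.18 in wt (median 7.61) and from 6.74 to 8.72 in cre mice (median 8.37), with cre mice 9 and 7 among the lowest and wt mouse 5 highest. Mcm6, a helicase subunit, had 0.67 (SE 0.11, adjusted p = 0.00033), with 8.68 to 11.1 in wt (median 9.86) and 8.52 to 10.8 in cre mice (median 10.2). For Ccnb2 the slope was 0.66 (SE 0.11, adjusted p = 0.00040), with 8.34 to 11.01 in wt (median 8.90) and 7.26 to 9.60 in cre mice (median 8.69). Pcna had a slope of 0.62 with the smallest error for its size (SE 0.08, adjusted p = 1.8e-05), and Mki67 one of 0.62 with a wider error (SE 0.16, adjusted p = 0.018).

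By role, 5 of 7 licensing genes passed (Cdc6, Cdt1, Mcm3, Mcm5 and Mcm6), and Mcm2 (0.28) and Mcm4 (0.22) did not. Of the DNA synthesis genes 4 of 5 passed, all but Tyms (0.22). Among mitotic kinases, cyclins and checkpoint genes 6 of 8 passed: Cdk1 (0.58), Ccnb2, Plk1, Aurkb (0.31), and the checkpoint genes Bub1 (0.56) and Bub1b (0.46). Aurka (0.12, adjusted p = 0.470) and Ttk (0.25, adjusted p = 0.082) did not. Of the spindle and chromosome group 6 of 9 passed, namely Kif11 (0.58), Kif20a (0.51), Tpx2 (0.51), which activates Aurka at the spindle, Birc5 (0.39), Top2a (0.30) and Mki67. Cdc20 passed (0.43) and Ube2c did not (0.16), and of the S phase cyclins Ccna2 passed (0.49), while Ccne2 (0.23) and Ccne1 (0.01) did not. E2f1 had a slope of 0.27 (adjusted p = 0.113). Nusap1 was the 1 gene with a negative slope (−0.08, SE 0.14, adjusted p = 0.792), and Cenpf had 0.10 (SE 0.07).

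**Figure D4:**
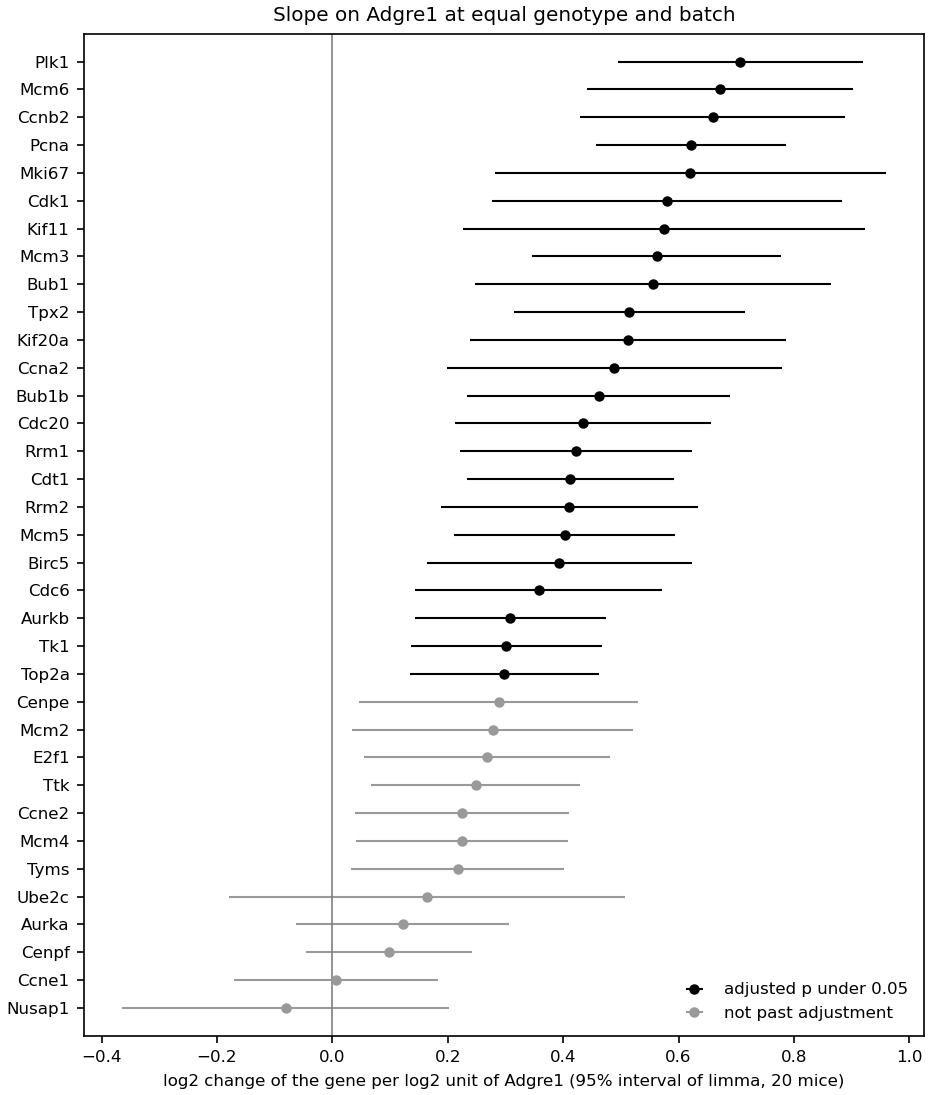
Slope of each of the 35 genes on Adgre1 at equal genotype and batch, in log2 units of the gene per log2 unit of Adgre1, with 95% intervals of limma over 20 mice, sorted by size; black genes have an adjusted p under 0.05. The 23 black genes run from Plk1 (0.71) to Top2a (0.30), and Ube2c, Aurka, Cenpf, Ccne1 and Nusap1 at the bottom have intervals that hold 0.

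The count of slopes past adjustment leaned on the mice at the ends of the Adgre1 range. Without wt mouse 5, which has the highest Adgre1, it was 10 of 35 (3.76% of all probe sets). It was 14 (4.24%) without cre mouse 9, which has the lowest, 6 (2.55%) without cre mice 7 and 9 together, and 4 (2.18%) without wt mouse 5 and cre mouse 9 together, where all 35 slopes were positive with a median of 0.33. In batch 1 alone 19 genes passed, beside 5.26% of all probe sets with a positive slope. In batch 2 alone no probe set passed with a positive slope in limma, 4 of the 35 were under an unadjusted p of 0.05, and 34 slopes were positive with a median of 0.28. Adgre1 spanned 12.2 to 13.9 in that batch and 10.7 to 14.3 in batch 1. In wt mice alone none of the 35 passed in limma (0.536% of all probe sets adjusted and positive), and 21 were under an unadjusted p of 0.05. In cre mice alone 9 passed (3.28%). The median slopes were 0.37 in wt and 0.40 in cre mice. For batch 2 alone and wt mice alone, the share of all probe sets at an unadjusted p was not computed. The counts of 4 and 21 thus cannot be judged against one.

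**Figure D5:**
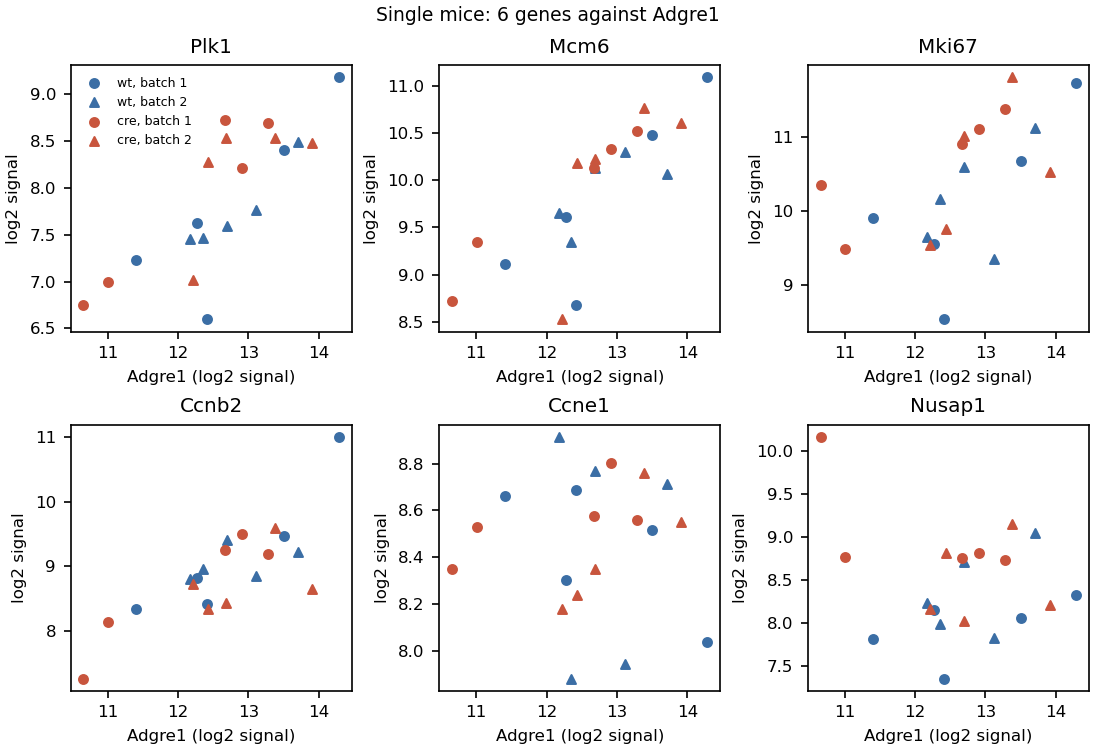
Log2 signal of 6 genes in each mouse against the Adgre1 log2 signal of the same mouse (blue wt, red cre; circles batch 1, triangles batch 2). Plk1, Mcm6 and Ccnb2 are low in cre mice 9 and 7 (Adgre1 10.658 and 11.007) and highest in wt mouse 5 (14.3), and Mki67 climbs with more scatter, near its mean in cre mouse 9 (10.4) and highest in cre mouse 2 (11.8), while Ccne1 and Nusap1 show no such climb and Nusap1 has its highest value (10.2) in the mouse with the lowest Adgre1.

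Markers of other cells moved with Adgre1 too, and their part in the slopes was not tested beyond the following values. Over the 20 mice, within genotype and batch, Adgre1 correlated at 0.94 with the mean of the 16 macrophage genes, of which it is 1, and at 0.93 with the mean of the other 15. It correlated at 0.68 with that of 10 T cell genes, at 0.66 with 8 adipose progenitor genes and at −0.49 with 11 adipocyte genes. With the macrophage mean in place of Adgre1, 23 of the 35 genes passed with a positive slope (6.73% of all probe sets), and with Adgre1 left out of that mean it was again 23 (6.68%). With the progenitor mean it was 17 (4.25%), with the T cell mean 7 (2.75%: Mcm3, Pcna, Rrm1, Rrm2, Cdk1, Plk1 and Mki67) and with the B cell mean 0 (0.685%), although all 35 slopes on the T and B cell means were positive. On the adipocyte mean 34 slopes were negative, and Ccna2 (−0.70), Pcna (−0.59) and the kinetochore motor gene Cenpe (−0.54) passed, beside 3.22% of all probe sets with a negative slope. None of the 35 passed in limma on the means of endothelial (1.73% of all probe sets positive, 1.02% negative), mesothelial (0.0135% and 0%), erythroid precursor (0.167% and 0.0135%), liver (0.937% and 0.0225%) or germ cell genes (0% and 0%). With the T cell mean in the model beside Adgre1, 4 of the 35 Adgre1 slopes passed (1.87% of all probe sets). With the adipocyte mean 14 did (5.89%), and with the erythroid precursor mean 16 did (4.28%). The progenitor mean was not set beside Adgre1.

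Mki67, the usual marker of cycling cells, was set against 10 measures across the 20 mice, as deviations from genotype and batch means with permutation within them and adjustment over the 10. It rose with Mcm5 (r = 0.76, permutation adjusted p = 0.0012, rho = 0.83) and Top2a (r = 0.61, permutation adjusted p = 0.0061, rho = 0.69), 2 genes of the same list, and with Adgre1 (r = 0.69, permutation adjusted p = 0.0061, rho = 0.72). Within batches the r with Adgre1 was 0.76 in batch 1 and 0.56 in batch 2, the latter with a permutation p of 0.127, and it was 0.66 without cre mice 7 and 9. The macrophage mean gave r = 0.75 (permutation adjusted p = 0.00060, rho = 0.80), 0.78 and 0.77 in the batches and 0.83 without those 2 mice.

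Markers of other cell types moved with Mki67 too. The T cell mean gave r = 0.79 (permutation adjusted p = 0.00095, rho = 0.87), with 0.72 and 0.88 in the batches and 0.88 without wt mice 2 and 9. The progenitor mean had r = 0.68 (permutation adjusted p = 0.0061, rho = 0.65; 0.80 and 0.45 in the batches, permutation p = 0.209 in batch 2; 0.61 without 2 mice), and the B cell mean r = 0.64 (permutation adjusted p = 0.011, rho = 0.71; 0.59 in batch 1 with p = 0.183 and 0.72 in batch 2; 0.57). Mki67 fell as the adipocyte mean rose (r = −0.57, permutation adjusted p = 0.017, rho = −0.69), with r = −0.88 in batch 1 and −0.28 in batch 2 (permutation p = 0.455), a difference between batches that was not tested, and −0.78 without wt mice 5 and 6. The endothelial mean had r = −0.50 (permutation adjusted p = 0.036, rho = −0.55), with −0.60 and −0.38 in the batches (permutation p = 0.092 and 0.267) and −0.60 without 2 mice, and the erythroid precursor mean had r = −0.12 (permutation adjusted p = 0.611, rho = −0.07; −0.13 and −0.09; −0.20).

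A wider list of 117 further genes, of which 112 were measured, was compared in the same way. Beside cell cycle genes it held 9 cytokine and receptor genes linked to macrophage proliferation, such as Csf1. Of the 8 measured among these, 0 were under an unadjusted p of 0.05 and 0 had an Adgre1 slope past adjustment (limma). None passed adjustment in limma. At an unadjusted p under 0.05 stood 4 (3.57%), a smaller share than the 6.29% of all probe sets, all higher in cre mice: Cdkn2c, an inhibitor of Cdk4 and Cdk6 (0.56, SE 0.26), Lin54, the CHR-binding subunit of the DREAM complex (0.32, SE 0.13), Cdc7, the kinase that fires origins (0.36, SE 0.15), and Tfdp1, the dimer partner of the E2F proteins (0.26, SE 0.12). Their adjusted p lay between 0.770 and 0.785 (limma).

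On Adgre1, 24 of the 112 genes had a positive (21.4%) and 4 a negative slope (3.57%) past adjustment, beside 6.26% and 2.57% of all probe sets. Of 40 further mitotic genes 13 rose with Adgre1, among them the kinase genes Pbk (0.77, SE 0.09) and Melk (0.64, SE 0.09) and Cdca3 (0.71, SE 0.12). Of 12 measured genes of G1 control 6 rose, with Cdk6, a partner of the D cyclins, at 0.92 (SE 0.10), and with Cdk2, Cdk4, Myc, Mybl2 and Rbl1. Of 28 further replication genes 3 rose, Uhrf1 (0.52), Dnmt1 (0.46) and Chaf1b (0.48), and E2f8, a late repressor among the E2F proteins, rose as well (0.56). Of 11 measured genes of kinase inhibition and arrest 1 rose and 2 fell. The 4 genes that fell as Adgre1 rose were Cdkn2c (−0.49), the stress gene Gadd45a (−0.45), Tfdp2 (−0.48) and the securin gene Pttg1 (−0.36). Csf1, the growth factor of macrophages, had a slope of 0.32 (adjusted p = 0.060) and differed by −0.06 between genotypes.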

How the data were processed

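Per the labels' protocols, total RNA of each fat pad was amplified and labelled for GeneChip WT PLUS arrays. Values are log2 signals, 1 per probe set, as deposited. Transcriptome Analysis Console 4.0.2.15, RMA and mm10 are named in the submitters' processing notes; filters and any batch adjustment are not given in the sources used here.

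Groups came from the sample titles. The 20 replicates are mice. Names of probe sets came from GEO's platform table: 19572 had 1 symbol, 0 several and 2634 none, and all 19572 matched the RefSeq table (GRCm38.p6). The probe set with the highest mean stood for a gene. limma 3.58.1 (R 4.3.3; lmFit, eBayes) fitted genotype and batch to all probe sets, with Benjamini-Hochberg adjustment over all of them and a threshold of 0.05. Adgre1 was added as a covariate, its own row left out. Relations used 100000 permutations (Python 3.11.15, NumPy 2.4.6, SciPy 1.17.1, pandas 2.3.3; plots, matplotlib 3.10.9). The fits were tested on simulated data. The number of arrays limits the precision.

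Genes were named by a rule: Mki67, Top2a, Pcna, Mcm5, E2f1 and Foxm1, and in each role the gene with the smallest p, are given in full; Aurkb and Cenpf were added for their p, and Plk1, Mcm6 and Ccnb2 for their slopes, after these were seen. Members and lists were chosen with earlier results of these data known.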

Additional observations from a re-analysis of the deposited data

Results flagged for a closer look

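Of 74 groups of 10 mice looked at, 2 held a mouse far from the others by Dixon's criterion, which chance alone flags in about 1 group in 20. In Ccnb2, wt mouse 5 had a log2 signal of 11.008, and the next wt mouse had 9.466. That mouse also had the highest Adgre1 value, 14.3. In Nusap1, cre mouse 9 had 10.17, and the next cre mouse had 9.146. That mouse had the lowest Adgre1 value, 10.7, and the highest mean of erythroid precursor genes, 8.29.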

How the results depend on the processing

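The count of 0 genes past adjustment for the batch interaction stayed at 0 under each alternative for which it was run. The genotype difference of the mean of the 35 genes had no test and so no call to keep. It was 0.06 as reported, lay between −0.01 and 0.16 without single mice and was 0.25 with the macrophage mean as covariate. All these shifts were smaller than the SD of the mean in wt mice (0.43), which is itself wider than the reported difference. Other counts were less steady. Probe sets past adjustment between genotypes numbered 1, and 0 in batch 1 alone, in batch 2 alone and with a replicate block, 2 with Adgre1 or the macrophage mean as covariate, and 1 to 2 without single mice (2 without wt mouse 4). Genes at an unadjusted p under 0.05 between genotypes numbered 5, and 2 in batch 1 (Aurka and Nusap1), 1 in batch 2, 8 with Adgre1, 11 with the macrophage mean, 1 without 3 mice, and 3 to 5 without single mice. The study's selection took 1 (1.04% of all probe sets), and 0 in batch 2 (2.56%), with array weights and without 3 mice, 2 with Adgre1, 3 with the macrophage mean, and 0 to 1 without single mice (0 without wt mice 1, 3 or 10 or cre mice 2 or 9). For the selection with a covariate, with array weights or without mice no share of all probe sets is given, so these counts cannot be judged against one. At equal Adgre1 the 8 genes became 1 in batch 2 and 4 to 8 without single mice. The 23 Adgre1 slopes (6.26% of all probe sets) became 0 in batch 2 and 4 with a replicate block (2.72%). They became 6 without the 2 mice lowest in Adgre1, 4 without the highest and lowest, and 0 in wt and 9 in cre mice alone. With the adipocyte, T cell or erythroid precursor mean they became 14, 4 and 16, and without single mice 10 to 24.

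Signs were followed across the alternatives only for the genes given in full by the rule and for Aurkb and Cenpf. Over all 35 genes, 7 were lower and 10 higher in both batches, and the others turned between batches. Among the genes followed, signs turned for those whose adjusted p was above 0.85 in limma: Cdc6 in batch 1 (−0.16), E2f1 in batch 2 (0.095) and without the mice highest and lowest in Adgre1 (0.0050), Ube2c in batch 2 (−0.14), Pcna with Adgre1 (0.052), the macrophage mean (0.19), array weights (0.030), without cre mouse 9 (0.0046), without the 2 mice lowest in Adgre1 (0.11) and without the highest and lowest (0.11), and Mcm5 with the macrophage mean (0.059), without the 2 lowest (0.058) and without the highest and lowest (0.039). Without single mice Pcna ran from −0.212 to 0.0046. The cause was not tested.

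Whether equal replicate numbers pair the mice is not said in the titles, and correlations between arrays cannot settle it. Of 10 same-numbered pairs 4 correlated above 0.1 (r from −0.315 to 0.302), and 1 of 10 wt mice correlated best with its own number. The main fits did not pair the mice. A replicate block took the Adgre1 slopes past adjustment from 23 to 4, and the share of all probe sets from 6.26% to 2.72%. The alternatives without 3 mice, without mice at the ends of the Adgre1 range, in 1 genotype alone with a further list mean and with the macrophage mean without Adgre1 were chosen after seeing the data.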
